A study of Homo sapiens with 4 samples.

Results

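GNL3L and 5 related genes for nucleolar GTPases (GNL3, GNL2, GNL1, GTPBP4 and BMS1) were followed after LSD1 knockdown in SH-SY5Y, a line grown from a human neuroblastoma. Cells had been transfected with an siRNA against LSD1 (siLSD1, n = 2 arrays), or with a control siRNA (siControl, n = 2 arrays), with separate transfections behind the arrays of a group. LSD1 is the histone demethylase encoded by KDM1A, and an siRNA lowers its transcript without removing it. All arrays came from 1 cell line, and the title of siLSD1 replicate 2 names the target as LSD without the number. The group was chosen by the signal of GNL3L itself, which was lower on the siLSD1 arrays, and the other 5 genes were added as its relatives in function. Members were the probe sets annotated with exactly 1 gene symbol, that symbol being one of the 6. They numbered 14 of 41091 such probe sets, and covered 5 of 19775 genes, namely 4 for GNL3L, 1 for GNL2, 5 for GNL1, 3 for GTPBP4 and 1 for BMS1. For GNL3 the annotation used here named 0 probe sets, so GNL3 was not analysed. A further probe set annotated to GTPBP4 together with IDI2 was no member.

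These proteins bind and hydrolyse GTP, and most act in the nucleolus, where ribosomal RNA is transcribed, cut and joined with ribosomal proteins. GNL3 (nucleostemin) and GNL3L form a pair of close vertebrate relatives and, with GNL2 and GNL1, belong to a GTPase family in which the GTP-binding motifs stand in a permuted order. GNL2 and GTPBP4 are the human counterparts of the yeast proteins Nog2 and Nog1, which ride on the maturing large ribosomal subunit, whereas BMS1 works on the small subunit. Cells that divide rapidly, neuroblastoma cells among them, keep this machinery at a high level.

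Sequence around the annotated gene starts was compared to see what the genes share besides function. The windows were RefSeq promoters of build GRCh38.p14, with 250 bases before and 50 after the start, and all 5 measured genes had one. The ETS core CGGAAG, read on both strands, was present in 4 of the 5 windows (GNL3L, GNL2, GTPBP4 and BMS1, not GNL1), against 19.5% of all 35116 windows. The motif TGACGT, part of the cyclic AMP response element, was in 2 of the 5 (GNL2 and GTPBP4), against 7.98% of all windows. The GC box GGGCGG was in 5 of 5, against 45.0%, the E-box CACGTG in 2 of 5, against 7.26%, CCAAT in 1 of 5, against 34.6%, and TATAAA in 0 of 5, against 11.5%. GNL3, which was not measured and is outside these counts, also had promoter windows. They held GC boxes and an E-box, but neither CGGAAG nor TGACGT. The GC content of the 5 windows ran from 64.7% to 68%, against a median of 58.7% over all windows. The motifs were picked after these sequences had been read, and a match is only a match of letters. The 4 stretches below, each of 100 bases that end 5 bases after the start, are shown for the gene with the largest difference (GNL3L), for GNL1, whose brightest probe set lay on the other side, and for GNL2 and GTPBP4. Capitals mark CGGAAG and TGACGT.
GNL3L, chrX:54530124-54530223, + strand: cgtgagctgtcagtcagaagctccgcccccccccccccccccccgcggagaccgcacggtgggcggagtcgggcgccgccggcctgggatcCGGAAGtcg
GNL1, chr6:30556485-30556584, - strand: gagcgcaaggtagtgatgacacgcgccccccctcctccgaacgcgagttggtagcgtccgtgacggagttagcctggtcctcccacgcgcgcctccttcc
GNL2, chr1:37595933-37596032, - strand: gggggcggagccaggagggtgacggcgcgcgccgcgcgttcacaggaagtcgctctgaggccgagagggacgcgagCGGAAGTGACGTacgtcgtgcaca
GTPBP4, chr10:988339-988438, + strand: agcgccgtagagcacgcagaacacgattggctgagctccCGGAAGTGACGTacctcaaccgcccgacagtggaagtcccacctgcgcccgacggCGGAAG
In GNL2 and GTPBP4 both motifs were joined into 1 run, which began 19 bases before the start of GNL2 and 56 before that of GTPBP4. In GNL3L the single ETS core began 4 bases before the start and had no TGACGT beside it.

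All levels below are log2 signals of single probe sets after quantile normalization, and all differences are siLSD1 minus siControl on that scale. Brightness served only to choose which probe set stands for a gene and which genes are named, since signals of different probe sets are not comparable as levels. KDM1A, the siRNA's target, had signals of 8.40 and 8.54 on the siLSD1 arrays and 9.79 and 9.78 on the siControl arrays, a difference of -1.32 or 40.04% of the control level. Replicate 1 of siControl stood somewhat apart, with correlations of 0.944 to 0.947 to the other arrays, which correlated at 0.962 to 0.971 among themselves. Replicate 2 of siLSD1 carried more ribosomal RNA signal, with deposited log2 signals of 10.30 to 10.86 in the 3 control probe sets for 18S rRNA, against 5.28 to 6.58 on siLSD1 replicate 1 and 5.21 to 6.04 on the siControl arrays. The same array had the largest excess of 3′ over 5′ signal, at 1.16 for actin and 0.30 for GAPDH (log2), against 0.71 and -0.0065 on siLSD1 replicate 1, and 0.70 and 0.54 for actin and -0.03 and 0.0014 for GAPDH on the siControl arrays. Whether these features of single arrays play a part in the differences below was not tested, and values without each array are given where they matter. Of 9 marker genes of noradrenergic neuroblastoma cells, 7 had a mean signal above 8, among them GATA3, ISL1 and DBH, whereas TH lay below the filter on low signals (3.62, the 40th percentile). Of 5 blood markers and 3 glial markers, 1 and 0 had a mean above that filter. All 5 fibroblast markers did, with signals between 4.08 and 7.66. As signals of different probe sets are not comparable as levels, no share of cell types is read from them. In RNA from whole cultures, fewer cells that express a gene and less RNA per cell cannot be told apart.

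GNL3L was lower in siLSD1 cells by its brightest probe set, 205010_at, which targets a RefSeq transcript of the gene. The signal was 5.02 and 5.26 on the siLSD1 arrays and 6.48 and 7.94 on the siControl arrays. The siLSD1 values lay close together and 1.22 below the lower control value, whereas the control arrays differed from each other by 1.46. Group means were 5.14 ± 0.17 in siLSD1 and 7.21 ± 1.03 in siControl cells (SD, n = 2 each), a difference of -2.07, or 4.20-fold lower. Since GNL3L was selected on this difference, it is given as a description without a test. Of the 24655 probe sets above the filter, 22 had a mean at least 4-fold lower in siLSD1 with groups that did not overlap. Nothing is read from the place of GNL3L among them, which goes with its selection. The size of the GNL3L difference rested on which control array was used. It was -1.34 without siControl replicate 2 and -2.80 without siControl replicate 1, and it was -2.19 without siLSD1 replicate 2, the array with the strong rRNA signal.

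The other 3 GNL3L probe sets did not share this size, and 1 lay on the other side. With 46947_at the signal was 4.93 and 3.60 on the siLSD1 arrays and 4.58 and 5.93 on the siControl arrays. Its groups overlapped, since siLSD1 replicate 1 exceeded siControl replicate 1, and the difference of -0.99 was -0.31 without siControl replicate 2, -0.33 without siLSD1 replicate 2 and -1.67 without siControl replicate 1. With 217632_at the 4 values were nearly level, at 4.91 and 4.77 in siLSD1 and 4.94 and 4.93 in siControl cells. Both siLSD1 values were the lower ones, by a gap of only 0.02 and a mean difference of -0.09. With 222109_at both siLSD1 values, 4.70 and 4.07, lay above both siControl values, 3.999 and 3.65. That difference was 0.56 in the opposite direction, close to the filter level, and was 0.25 without siLSD1 replicate 1 and 0.87 without siLSD1 replicate 2. The mean of the 4 probe sets gave -0.65 for GNL3L in place of -2.07, so the size depended on how probe sets were combined. Which stretch of the transcript each probe set reads was not analysed here.

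**Figure D1:**
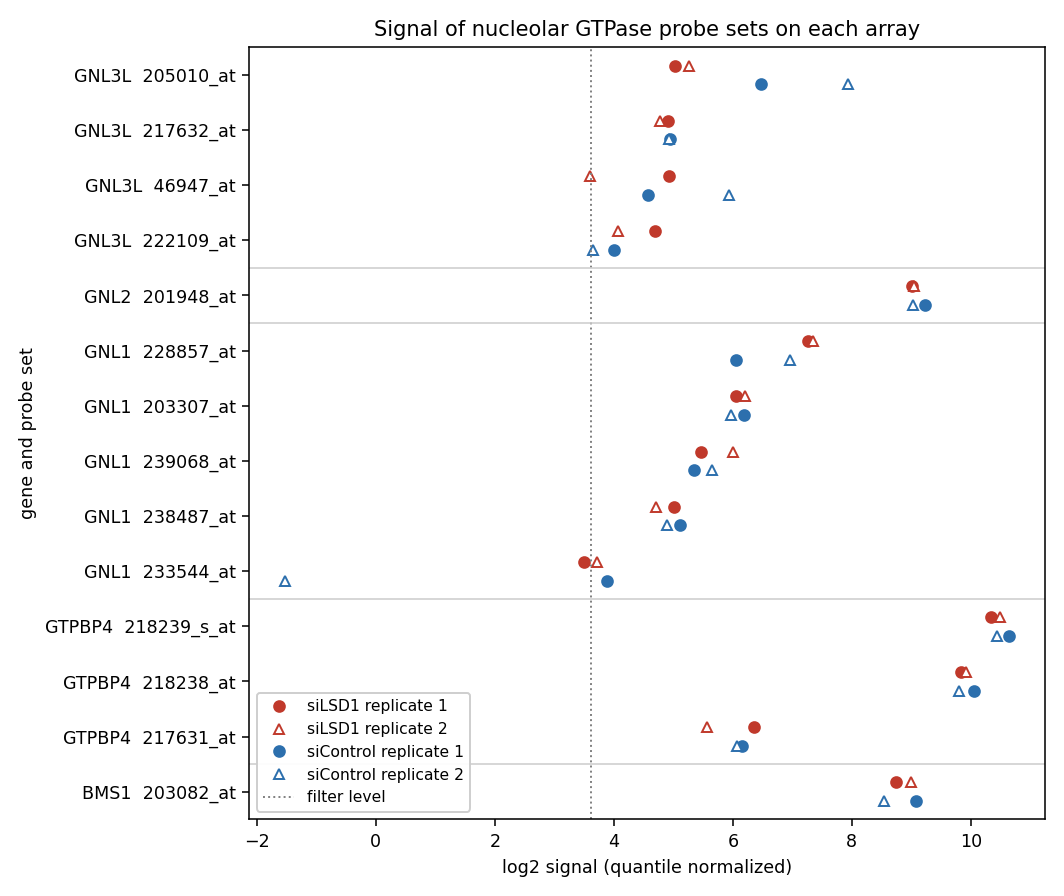
Log2 signal (x axis, quantile normalized) of each of the 14 member probe sets (y axis, grouped by gene) on the siLSD1 arrays (red) and siControl arrays (blue), with circles for replicate 1, triangles for replicate 2 and a dotted line at the filter level of 3.62. GNL3L 205010_at shows both siLSD1 values left of both siControl values, whereas the groups of every GNL2, GTPBP4 and BMS1 probe set overlap.

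GNL1, the family member encoded within the major histocompatibility region, was higher by its brightest probe set. That probe set, 228857_at, gave 7.26 and 7.35 on the siLSD1 arrays and 6.06 and 6.96 on the siControl arrays. Both siLSD1 values lay above both control values, by 0.30 at the narrowest, and the siControl replicate 1 value was well below the rest. Means were 7.30 ± 0.06 in siLSD1 and 6.51 ± 0.64 in siControl cells (SD, n = 2 each), a difference of 0.79 with a 95% interval from -0.01 to 1.60 in limma's fit. Without siControl replicate 1 the difference was 0.34, and without siControl replicate 2 it was 1.25. The mean of the 4 GNL1 probe sets above the filter gave 0.23 in place of 0.79. The other GNL1 probe sets above the filter overlapped between groups. For 203307_at the signal was 6.06 and 6.21 in siLSD1 and 6.19 and 5.97 in siControl cells, a difference of 0.05 that turned to -0.06 without siControl replicate 2. The differences of 239068_at and 238487_at were 0.24 and -0.15. The fifth, 233544_at, failed the filter, with 3.50 and 3.71 in siLSD1 and 3.88 and -1.52 in siControl cells, and its difference of 2.42 came from that 1 low control value.

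GNL2 and GTPBP4, the 2 members that accompany the large subunit, were level between the groups. GNL2 had a signal of 9.02 and 9.05 on the siLSD1 arrays and 9.24 and 9.03 on the siControl arrays. The groups overlapped, and the difference of -0.10 had a 95% interval from -0.49 to 0.30. GTPBP4 gave 10.34 and 10.49 in siLSD1 and 10.64 and 10.43 in siControl cells with its brightest probe set, 218239_s_at, which made a difference of -0.12 with a 95% interval from -0.41 to 0.16. This was the narrowest interval among the members. The second probe set, 218238_at, differed by -0.06 (interval -0.39 to 0.27), and the third, 217631_at, by -0.15 (interval -0.96 to 0.66), with its lowest value of 5.56 on siLSD1 replicate 2. The probe set shared by GTPBP4 and IDI2 differed by 0.13, with 7.11 and 7.05 in siLSD1 and 7.12 and 6.77 in siControl cells.

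BMS1, the GTPase that partners the processing factor RCL1 on the maturing small subunit, had 8.73 and 8.99 on the siLSD1 arrays and 9.08 and 8.53 on the siControl arrays. The siLSD1 values lay between the control values, and the difference was 0.06 with a 95% interval from -0.49 to 0.60. It was 0.33 without siControl replicate 1 and -0.22 without siControl replicate 2. RCL1 itself differed by -0.15, with 7.89 and 7.67 in siLSD1 and 8.08 and 7.77 in siControl cells.

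Of the 9 probe sets of the other genes above the filter, limma called 0 at an adjusted p under 0.05, and 0 had an unadjusted p under 0.05. Over all 24655 probe sets the share called was 0%, with 818 at an unadjusted p under 0.05, so that nothing about the members can be read from it. Without siControl replicate 2 limma called 5 probe sets in all, and without siLSD1 replicate 1 it called 1, none of them a member. Among the 13 member probe sets above the filter, the groups did not overlap in 4. The 2 siLSD1 values were the lower ones in 2 (GNL3L 205010_at and 217632_at) and the higher ones in 2 (GNL3L 222109_at and GNL1 228857_at). Over all probe sets above the filter the shares with lower and with higher siLSD1 values were 16.1% and 16.1%. Since GNL3L was selected on this contrast, nothing is read from the members' counts, and without GNL3L they were 0 lower and 1 higher of 9. Of the 9 differences outside GNL3L, 7 changed sign when 1 array was left out, and 4 changed sign when arrays were centred on their medians in place of quantile normalization.

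**Figure D2:**
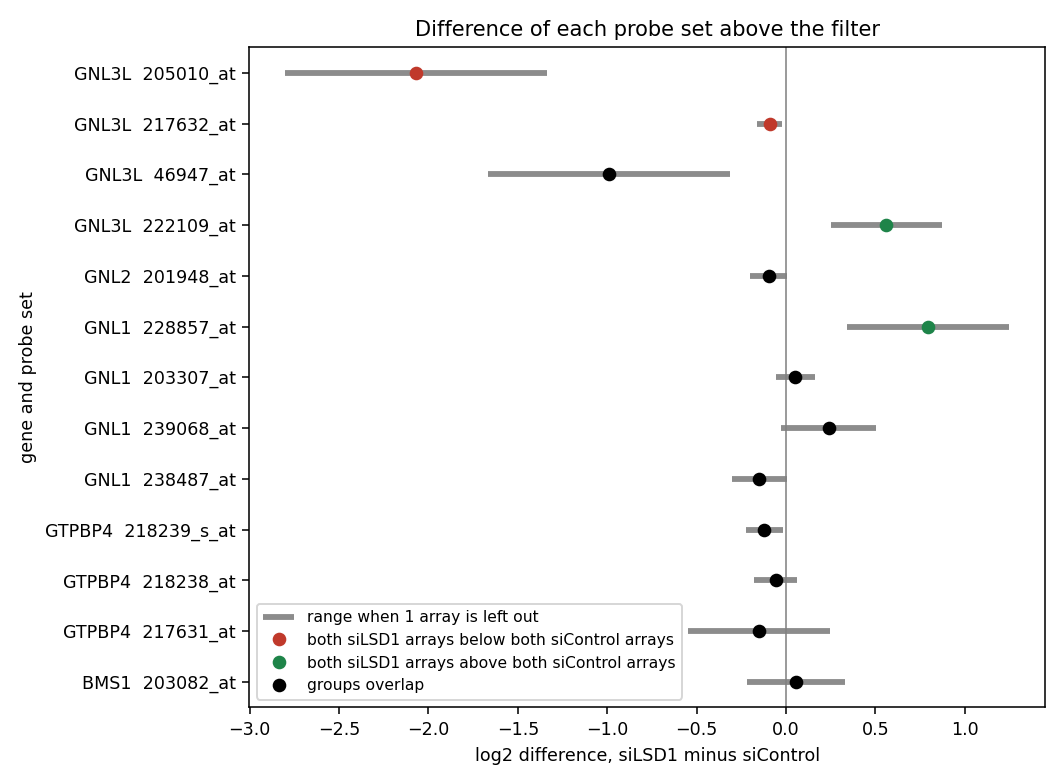
Log2 difference, siLSD1 minus siControl (x axis), of the 13 member probe sets above the filter (y axis), with points coloured by whether the groups of 2 arrays overlap and grey bars for the range of the difference when 1 array is left out. GNL3L 205010_at stands at -2.07 with a range from -2.80 to -1.34, while the bars of 7 of the 9 probe sets outside GNL3L cross 0.

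The BMS1 gene has many transcribed pseudogene copies, and 3 of them had a probe set with 1 symbol above the filter. BMS1P1 gave 6.52 and 5.92 on the siLSD1 arrays and 7.54 and 7.48 on the siControl arrays with 239151_at, a difference of -1.29 (95% interval -1.98 to -0.60). BMS1P2 gave 5.85 and 5.45 in siLSD1 and 6.89 and 6.91 in siControl cells with 231106_at, a difference of -1.24 (95% interval -1.92 to -0.57). In both the control values were close and the groups apart, but limma's adjusted p was 0.994 for each. The differences were known when this list was made, so they are no separate support. A second BMS1P1 probe set, 238924_at, overlapped between groups with a difference of -0.11. BMS1P20 went both ways, with 0.73 at 226802_s_at, -0.57 at 233132_at and 0.12 at 217179_x_at. Another 3 probe sets of these genes lay below the filter. The copies are near-identical to each other and to BMS1 in places, and a probe may read several of them, so each value is uncertain.

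The genes with the profile nearest to that of GNL3L were sought over the 4 arrays, as a description. The measure was the root mean square distance between centred log2 signals of the brightest probe sets, over 12080 genes. The nearest was VHL, the substrate receptor of a ubiquitin ligase, at a distance of 0.46, with 5.87 and 5.41 in siLSD1 and 7.23 and 7.66 in siControl cells. Next came the globin gene HBQ1 (0.502), the diphosphoinositol polyphosphate hydrolase NUDT4 (0.515), the adaptor DAPP1 (0.563) and the iron regulator HFE (0.582). Each of the 5 had its highest signal on siControl replicate 2, as GNL3L did. Since the genes were chosen for a profile like that of GNL3L, this follows from the choice and is no separate result. The siLSD1 means of HBQ1 (2.89), NUDT4 (3.44) and DAPP1 (3.29) lay below the filter level, so their sizes are uncertain. For NUDT4 the siControl values were 3.64 and 5.46, so its difference came mostly from siControl replicate 2.

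The rest of the ribosome assembly machinery was described by lists, with each gene at its brightest probe set above the filter. Limma called 0 genes in each of the 7 lists and 0 of the 12876 genes tested, of which 348 had an unadjusted p under 0.05. Over all genes tested, 51.2% had a positive difference, the median was 0.0068, and the groups lay apart downward in 15.2% and upward in 16.8%. None of the differences named below passed the test. Median centring moved the median of all genes up by 0.17. The negative medians of the 4 lists for the large subunit, small subunit, RNA polymerase I and nucleolar genes turned positive under it (0.11 to 0.14), though they stayed below that of all genes by 0.04 to 0.07.

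Large subunit assembly factors, the setting in which GNL2 and GTPBP4 work, had negative differences in 33 of 47 genes and positive ones in 14, with a median of -0.08 and 2 genes at an unadjusted p under 0.05 in limma. The groups lay apart downward in 16 of the 47 (34.0%) and upward in 4. The median deviation of the list was -0.05 and -0.03 on the siLSD1 arrays and 0.07 and 0.04 on the siControl arrays. Without siControl replicate 2 the median was -0.14, where that of all genes was -0.06. Of the brightest members, RSL24D1, the homologue of the yeast factor Rlp24, a partner of Nog1, gave 11.11 and 10.96 in siLSD1 and 11.31 and 11.29 in siControl cells, a difference of -0.26. NSA2 differed by -0.13 and RRP1B by 0.02. The largest differences with groups apart were those of the helicase DDX51 (-0.58) and of the ribosomal stalk assembly factor MRTO4 (-0.57). The MRTO4 signal was 8.32 and 8.11 in siLSD1 and 8.82 and 8.75 in siControl cells.

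Small subunit assembly factors, among which BMS1 acts, had 33 negative and 24 positive differences of 57, with a median of -0.05 and 0 at an unadjusted p under 0.05 in limma. The median was -0.08 without siControl replicate 2 and -0.03 without siControl replicate 1, where that of all genes was -0.06 and 0.04. Relative to all genes the list lay at -0.03 and -0.07 in these fits. The groups lay apart downward in 15 and upward in 9. The brightest members, TRMT112, DCAF13 and UTP18, differed by -0.002, -0.10 and -0.07. TBL3 and UTP3, components of the small subunit processome, had the largest differences with groups apart, at 1.94 and 0.70. For TBL3 the signal was 5.80 and 5.93 in siLSD1 and 2.32 and 5.54 in siControl cells, so the size came from siControl replicate 1. For UTP3 it was 8.65 and 8.51 in siLSD1 and 7.28 and 8.48 in siControl cells, so that size too came mostly from siControl replicate 1.

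Genes of the RNA polymerase I machinery, which transcribes ribosomal RNA, had 15 negative and 7 positive differences of 22. Their median was -0.08, and 1 gene had an unadjusted p under 0.05 in limma. Without siLSD1 replicate 1 the median was 0.05, and that of all genes was also 0.05. The shared subunits POLR1D (-0.18), POLR2L (-0.26) and POLR2K (-0.18) were the brightest, each with both siLSD1 values below both siControl values. POLR1A, the largest subunit, lay on the other side at 0.97, with 6.99 and 6.79 in siLSD1 and 5.55 and 6.29 in siControl cells. BAZ2A, a subunit of a complex that silences ribosomal RNA genes, differed by -0.52. Nucleolar and small nucleolar ribonucleoprotein genes were split into 11 negative and 10 positive of 21, with a median of -0.03 and 0 at an unadjusted p under 0.05 in limma. The median turned to 0.02 when siControl replicate 1 was left out and to 0.06 when siLSD1 replicate 1 was, and it was -0.09 without siControl replicate 2. That of all genes was 0.04, 0.05 and -0.06 in these fits. Relative to all genes the list lay at -0.01, 0.02 and -0.03. NPM1, the abundant nucleolar chaperone, differed by -0.06, NCL (nucleolin) by 0.0033 and NHP2 by -0.15, while NPM3 and NOM1 had 0.52 and 0.50.

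The list of other GTPases and GTPase-like proteins of ribosome assembly, in the cytosol and mitochondria, had 5 positive and 2 negative differences of 7. Their median was 0.29, with 0 genes at an unadjusted p under 0.05 in limma. Without siControl replicate 1 the median was -0.0022, where that of all genes was 0.04. LSG1, the cytosolic member of the same permuted family, was level at -0.0070. TSR1, a relative of BMS1, differed by 0.81, with 10.01 and 9.76 in siLSD1 and 8.20 and 9.95 in siControl cells, so its groups overlapped. Among the mitochondrial GTPases the differences were 0.09 for NOA1, 0.64 for MTG2, 0.30 for MTG1 and -0.34 for ERAL1.

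Genes for proteins reported to bind GNL3 or GNL3L, or to act with them, had 6 positive and 5 negative differences of 11, with a median of 0.0022, and 1 had an unadjusted p under 0.05 in limma. That gene was CDKN2A, which encodes the ARF tumour suppressor as well as p16, with 5.54 and 5.23 in siLSD1 and 6.21 and 6.22 in siControl cells, a difference of -0.83. MDM2, the ubiquitin ligase of p53, differed by 0.38, with the groups apart and the lowest value on siControl replicate 1. RPL11 (0.02), NPM1 (-0.06) and the nuclear receptor gene ESRRG (0.0022) were the brightest of the list. TERF1, the telomere protein that both GNL3 and GNL3L bind, differed by 0.16 with overlapping groups.

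**Figure D3:**
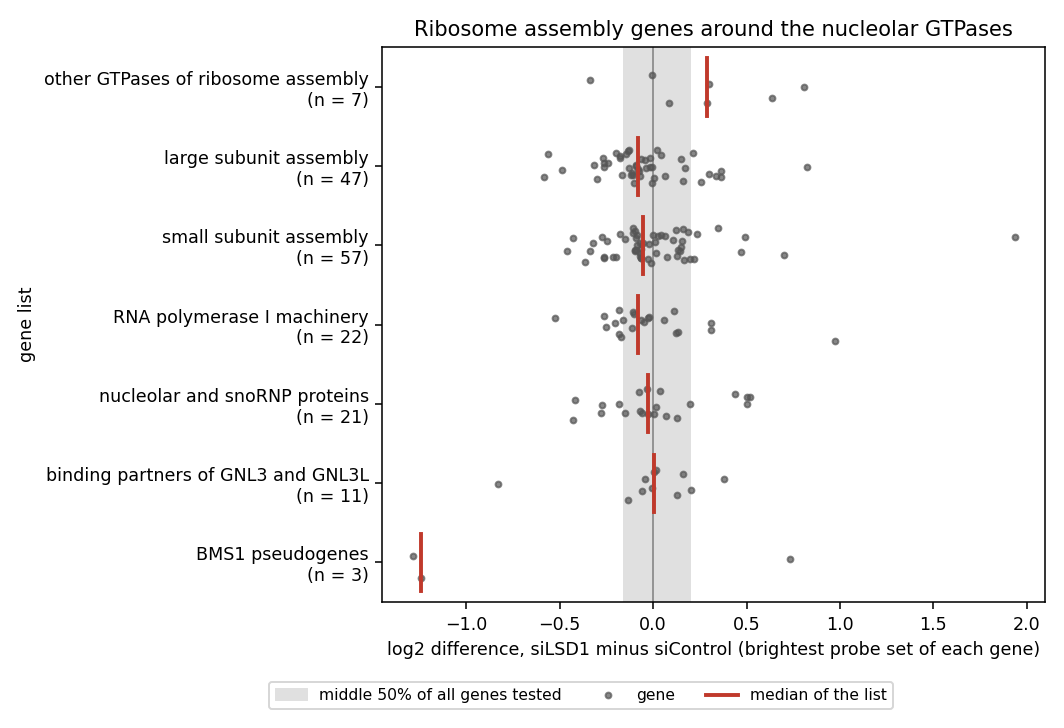
Log2 difference, siLSD1 minus siControl (x axis), of each tested gene at its brightest probe set in the 7 gene lists (y axis), with a red bar for the list median and a grey band for the middle 50% of all 12876 genes tested. The medians of 5 lists lie inside the band (4 of them below 0 here and above 0 under median centring), that of the other GTPases (0.29) lies above it, and that of the 3 BMS1 pseudogenes (-1.24) below it.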

How the data were processed

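Total RNA was hybridized to Affymetrix arrays, per the labels' protocols, and groups and replicate numbers came from the sample titles. The authors deposited 1 log2 signal per probe set and array. The scale was read from the values: raised from base 2 and trimmed of the extreme 2% at both ends, every array averaged 100.0. How probes were summarised is not given here by any label or header. Precision is limited by the number of arrays.

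Names for the 54675 probe sets came from the platform's 2016 annotation, where 41091 had 1 symbol and 1801 several. Deposited values were quantile normalized, and the 24655 probe sets with 1 symbol and a mean at or above 3.62 were fitted with limma 3.58.1 in R 4.3.3 (lmFit, eBayes with trend, two-sided, Benjamini-Hochberg over all probe sets, threshold 0.05, 7.28 degrees of freedom), and the fit was tested on simulated data. An exact permutation test of 2 against 2 arrays cannot go below p = 0.333. Nothing in the labels says that a replicate number marks a shared batch, so no replicate term was used. Deviations of same-numbered arrays had r = -0.07. Since the 2 arrays of a group deviate as mirror images, this cannot show that pairing is absent. The design text describes separate transfections, so p-values reflect how far transfections of a single line differ.

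Members and lists were chosen with earlier results of these data known. Named genes were KDM1A, all member probe sets, the BMS1 pseudogenes, the 5 nearest profiles, and in each list the 3 brightest genes plus the 2 with the largest difference among those with groups apart. RCL1, TERF1 and MTG1 were added after their values were seen. Alternatives covered scaling, filter, floor, variance model, probe set summary, replicate block and leaving out each array.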

Additional observations from a re-analysis of the deposited data

Results flagged for a closer look

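The control probe sets for 18S ribosomal RNA reached 10.86 (deposited log2 signal) on siLSD1 replicate 2, above the siControl range of 5.21 to 6.04, and were set aside because control probe sets enter no comparison above. Their part in the differences of the nucleolar GTPase genes was not tested. Without that array the GNL3L difference at its brightest probe set was -2.19, against -2.07 with it.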

How the results depend on the processing

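The GNL3L difference at its brightest probe set ran from -2.80 (without siControl replicate 1) to -1.34 (without siControl replicate 2) and was negative in all alternatives run. The mean of the gene's 4 probe sets, a different quantity, gave -0.65. With the replicate block the brightest probe set gave -2.07, with 0 calls, and the block changed no call. KDM1A ran from -1.39 to -1.14 and never passed limma's threshold, with adjusted p from 0.105 to 0.994. The number of probe sets called over the whole table was 0 in all settings with 4 arrays and ran from 0 to 5 when 1 array was left out. Median centring moved the median of all genes to 0.17, a shift of 0.17, and with it the medians of other GTPases (0.53), large subunit (0.11), small subunit (0.14), RNA polymerase I (0.12), nucleolar (0.14) and partner genes (0.12). Relative to all genes these were 0.35, -0.07, -0.04, -0.05, -0.04 and -0.06. Partner genes had -0.0558 under the deposited scaling and 0.0174 with probe sets averaged, where BMS1 pseudogenes had -0.70. Leaving out 1 array gave list medians from -0.0022 to 0.42 (other GTPases), -0.14 to -0.0566 (large subunit), -0.08 to -0.03 (small subunit), -0.14 to 0.0484 (RNA polymerase I), -0.0888 to 0.0648 (nucleolar), -0.0019 to 0.0328 (partners) and -1.44 to -0.99 (BMS1 pseudogenes). In these fits the median of all genes ran from -0.06 to 0.05. The causes were not tested. Outside GNL3L, 4 of 9 member differences turned sign under median centring and 0 under the deposited scaling. Dim probe sets near the filter, among them GNL3L 222109_at, have the least certain sizes.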
